A study of Rattus norvegicus with 28 samples.

Results

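The 6 genes described here, Grm2, Grm3, Grm4, Grm5, Grm7 and Grm8, encode metabotropic glutamate receptors, the G protein-coupled receptors for the main excitatory transmitter of the brain. They were taken by gene symbol from a count table of 36387 gene records, in which each has 1 record, and all 6 passed the filter on low counts that left 17404 genes for testing. Grm2 was of interest because its receptor has been reported to interact with the serotonin 2A receptor, the main site at which psilocin, the active product of psilocybin, acts and which ketanserin blocks.

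The animals were male adults of the outbred Sprague-Dawley rat stock, 8 weeks of age when they arrived, and RNA came from the prefrontal cortex. Each rat had 2 intraperitoneal injections, first ketanserin in 5% Tween-80 or Tween-80 alone and then psilocybin in saline or saline alone, and tissue was collected 24 h later. The 7 groups of 4 biological replicates were vehicle (Tween-80 and saline), psilocybin at 1 or 3 mg/kg after Tween-80, ketanserin at 1 or 3 mg/kg before saline, and both drugs at 1 mg/kg each or at 3 mg/kg each. The protocol text gives the injections one after the other, whereas the design text calls the combined injections simultaneous. The groups allow each drug to be compared with vehicle, and the combination with either drug alone. Replicate numbers only name libraries and pair nothing across groups.

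Metabotropic glutamate receptors fall into 3 groups by sequence and signalling. Group I receptors, of which Grm5 encodes mGlu5, lie mostly on the postsynaptic side around the synapse and couple through Gq to phospholipase C, calcium release and protein kinase C, and they are anchored by Homer and Shank scaffolds. Group II receptors, mGlu2 (Grm2) and mGlu3 (Grm3), and group III receptors, mGlu4 (Grm4), mGlu7 (Grm7) and mGlu8 (Grm8), couple through Gi/o to lower adenylyl cyclase activity and, on nerve terminals, to restrain transmitter release. In cortex mGlu2 is largely neuronal, while mGlu3 and mGlu5 are made in both neurons and astrocytes.

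On the rat genome build rn6, Grm2 (ENSRNOG00000013171) lies on chromosome 8 from 115344999 to 115358046 on the minus strand, and its span of 13048 bases is the shortest of the 6. Grm3 (ENSRNOG00000005519) lies on chromosome 4 from 21317695 to 21560490, plus strand. Chromosome 4 also carries Grm7 (ENSRNOG00000005662, 142780987 to 143367578, plus strand) and Grm8 (ENSRNOG00000021468, 54474136 to 55407922, minus strand), whose span of 933787 bases exceeded that of 99.9% of the tested genes. Grm4 (ENSRNOG00000000487) lies on chromosome 20 from 6745744 to 6791519, minus strand, and Grm5 (ENSRNOG00000016429) on chromosome 1 from 151439409 to 151783392, plus strand. The deposited transcript lengths, over which reads were counted, were 4580 bases for Grm2, 3536 for Grm3, 2616 for Grm4, 3121 for Grm5, 2507 for Grm7 and 4010 for Grm8. The models of Grm4, Grm5 and Grm7 are shorter than the coding sequences these genes are known to have, so reads from the missing parts were not counted for them.

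Promoter sequences from RefSeq on build GRCr8 were found for 3 of the 6 genes, Grm5, Grm7 and Grm8, and 2 are shown because Grm5 and Grm7 varied together between animals while their promoters differ in base composition. Each line gives the 250 bases before the annotated start, 5′ to 3′ on the gene's own strand, with capitals marking a GC box. Grm5 covers chr1:150733503-150733752 and Grm7 chr4:145286476-145286725, both on the plus strand.

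Grm5: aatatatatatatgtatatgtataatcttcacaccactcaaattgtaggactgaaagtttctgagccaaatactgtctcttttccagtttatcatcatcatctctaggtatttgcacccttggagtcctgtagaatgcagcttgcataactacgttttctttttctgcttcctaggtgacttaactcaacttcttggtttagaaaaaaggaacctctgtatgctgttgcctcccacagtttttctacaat
Grm7: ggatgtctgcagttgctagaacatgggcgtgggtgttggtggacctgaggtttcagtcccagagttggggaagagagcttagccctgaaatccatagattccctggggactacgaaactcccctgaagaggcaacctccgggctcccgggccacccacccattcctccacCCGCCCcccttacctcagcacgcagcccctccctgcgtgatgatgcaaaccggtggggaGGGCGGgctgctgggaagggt

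Short motifs were searched on both strands of that window. They were GGGCGG, the GC box bound by Sp1 family factors, which 30.5% of 33469 RefSeq rat promoters hold, TGACG, a half-site of the cAMP response element (18.2%), and TATAAA, the TATA box (12.9%). No 2 of these matches overlapped. The Grm7 window held 2 GC boxes, 16 bases before the start on the plus strand and 75 bases before it on the minus strand, and had a GC content of 62.0%. The Grm5 and Grm8 windows held none of the 3 motifs, with GC contents of 36.4% and 47.2% against a median of 51.2% over the promoters. Only 7.46% of promoters had a lower GC content than the Grm5 window, and 79.0% had a lower one than the Grm7 window. These matches are a description of the windows alone.

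Total counts per library were 12783067 to 18538414. The tissue label was checked against marker genes. The summed level of 4 excitatory neuron markers was 2368 to 3223 CPM (counts relative to the library total times its TMM scaling factor) over the 28 libraries and that of 6 interneuron markers 722 to 1288, whereas 3 cerebellum markers summed to at most 1.63 and 3 choroid plexus markers to at most 15.9 CPM. The 6 striatum markers, several of which cortex also expresses, summed to 262 to 410 CPM, and the endothelial marker Cldn5 was at 0 in 28 of 28 libraries. Replicate 4 of the group given both drugs at 3 mg/kg stood apart. It had no count at all for 19602 records, where other libraries lacked 15344 to 16657. Some of the values that this library moved are given with and without it (edgeR fits of 27 libraries for fold changes). The rest are given with all 28 libraries only.

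Grm2 was the most abundant of the 6 transcripts per length. FPKM (fragments scaled to transcript length and library size) as deposited by the authors, on which levels of different genes can be compared, had a median over 28 libraries of 28.7 for Grm2, 10.7 for Grm4, 8.70 for Grm7, 8.46 for Grm3, 4.72 for Grm5 and 4.46 for Grm8. The ranges were 11.4 to 33.3 for Grm2, 7.01 to 15.6 for Grm4, 5.16 to 11.4 for Grm7, 5.34 to 15.7 for Grm3, 0.868 to 15.3 for Grm5 and 3.58 to 6.33 for Grm8. Grm2 ranked first in 27 of 28 libraries, the exception being replicate 3 of ketanserin at 1 mg/kg, where Grm4 was first. Its FPKM was a median of 2.56 times that of Grm4 and 6.09 times that of Grm8 in the same library.

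**Figure D1:**
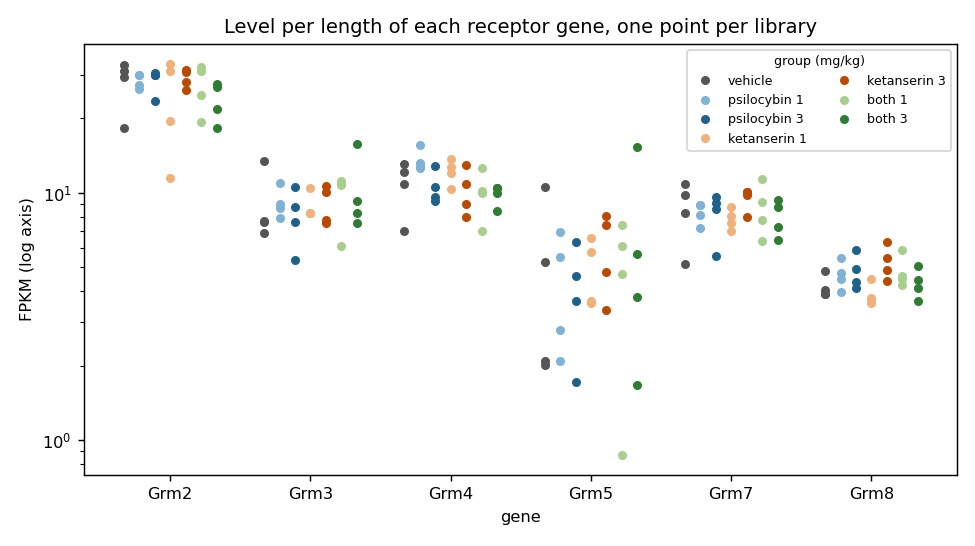
FPKM on a log axis for each receptor gene, with 1 point per library coloured by group. Grm2 lies above the others apart from 1 low library at 11.4, Grm8 spans only 3.58 to 6.33, and Grm5 spreads from 0.868 to 15.3.

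Neighbours in the middle of that order were not separated. Grm4 exceeded Grm3 in 20 of 28 libraries and Grm7 in 22, and Grm3 exceeded Grm7 in 16. Grm3 and Grm7 each exceeded Grm8 in all 28, and Grm5 was above Grm8 in 14 of 28 with a median ratio of 1.01. Because the models of Grm4, Grm5 and Grm7 are incomplete, their place per length holds for the counted parts only. Counts divided by the deposited length put Grm2 first in the same number of libraries, 27. Grm6, the receptor of retinal ON bipolar cells, had a median FPKM of 0.413 with counts of 3 to 64 per library.

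None of the 6 receptor genes rose or fell past the test in any comparison. edgeR's quasi-likelihood test, with p-values adjusted by the Benjamini-Hochberg method over 17404 genes and called under 0.05, called 0 of 6 in each of 15 comparisons and 0 of 6 for any difference among the 7 groups. DESeq2 also called 0. The background was as low. The share of all tested genes that was called was 0% for psilocybin at 1 or 3 mg/kg, ketanserin at 1 or 3 mg/kg and both drugs at 1 mg/kg against vehicle, and 0.00575% (1 gene) for both drugs at 3 mg/kg against vehicle. It was 0% for each combination against either drug alone, for both interactions and for both doses of psilocybin or of ketanserin pooled against vehicle, 0.00575% for the pooled combinations, and 0.0172% (3 genes) for any difference among the 7 groups. A count of 0 members called is therefore near the background in each comparison. Of the 90 member comparisons 5 had an unadjusted p under 0.05, or 5.56%, of which 2 were of Grm4 and 3 of Grm8. Over all genes the same pooled share was 2.83%, and 1.3 to 5.74% by comparison. The 15 comparisons share libraries, so that these counts are not independent.

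**Figure D2:**
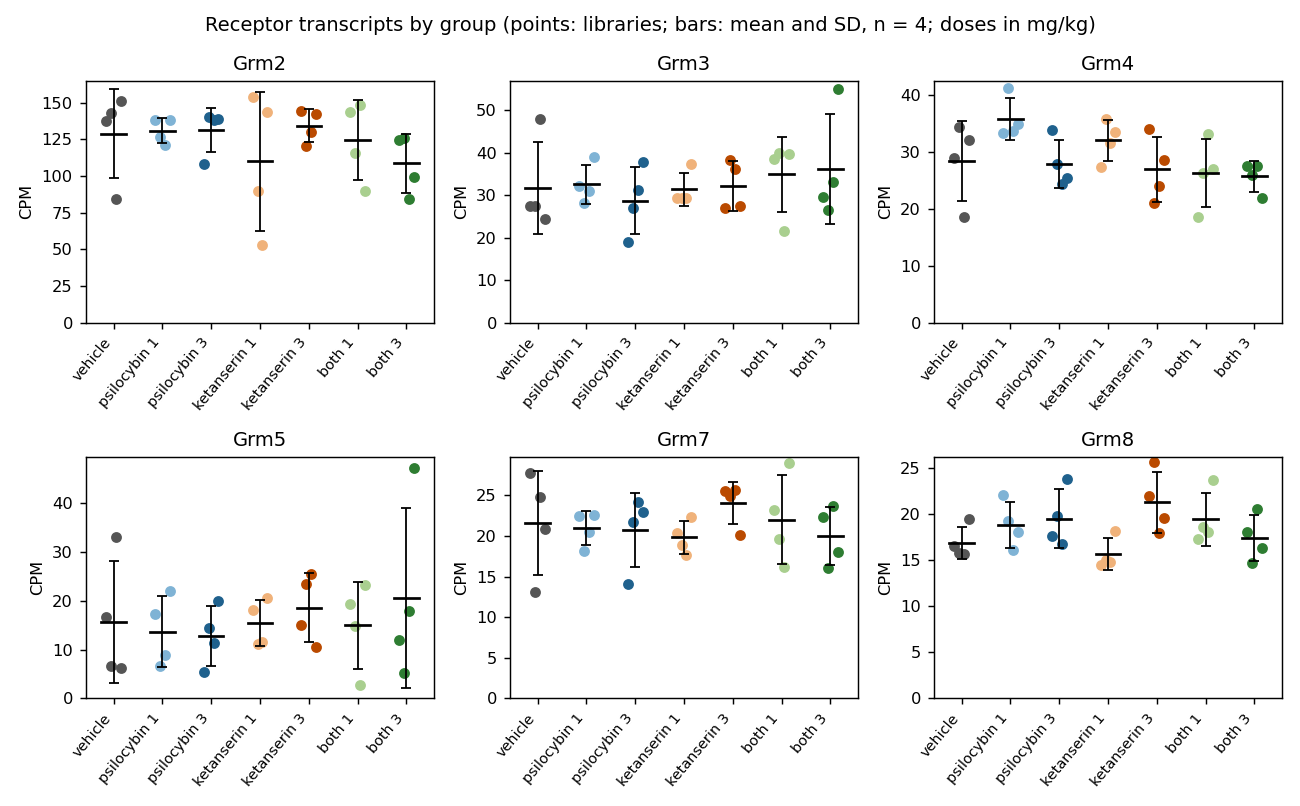
CPM of each receptor gene by group, with points for libraries and bars for the mean and SD of 4 libraries. Every treated group overlaps vehicle for all 6 genes, where 1.14 to 2.11% of all tested genes do not overlap, by comparison. The Grm5 points of 1 group can differ several-fold, from 2.73 to 23.3 CPM in both drugs at 1 mg/kg.

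Grm2, which encodes the group II receptor mGlu2, had nearly the same mean with psilocybin as without it. In CPM, the scale used for values of 1 gene across libraries from here on, replicates 1 to 4 of vehicle were at 137, 143, 84.0 and 151 (129 ± 30.4, SD, n = 4). After psilocybin at 1 mg/kg they were at 138, 126, 121 and 138 (131 ± 8.52), and at 3 mg/kg at 108, 140.0, 138 and 139 (131 ± 15.2). All 8 psilocybin libraries lay within the range of the 4 vehicle libraries, and the log2 fold changes were 0.02 and 0.03 (SE 0.229 for both). With both doses pooled the difference was 0.02, with a 95% interval of -0.39 to 0.43. Changes within those bounds remain compatible with these data, and the bounds are not a limit of detection.

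Ketanserin at 1 mg/kg held the widest spread of Grm2. The libraries were at 153, 89.8, 52.8 and 143 CPM (109.9 ± 47.2), which includes both the highest and the lowest of all 28 libraries. At 3 mg/kg they were at 144, 120.2, 130.1 and 142 (134 ± 11.2). The log2 fold changes against vehicle were -0.23 (SE 0.230) and 0.06 (SE 0.229). Without replicate 1 of ketanserin at 1 mg/kg the first of these was -0.42, and without its replicate 3 it was 0.00.

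With both drugs Grm2 was at 144, 116, 148 and 90.0 CPM at 1 mg/kg (124 ± 27.1) and at 124, 126, 84.6 and 99.1 at 3 mg/kg (109 ± 20.2). These differed from vehicle by -0.05 (SE 0.230) and -0.25 (SE 0.230), and the groups overlapped. Of all tested genes, 1.32% and 1.14% did not overlap vehicle there. Against the matching dose of psilocybin alone the values were -0.07 and -0.27, and against ketanserin alone 0.18 and -0.31. The interactions, which ask whether the drugs together differ from the sum of each alone, were 0.16 at 1 mg/kg (95% interval -0.51 to 0.83) and, at 3 mg/kg, -0.33 (-1.001 to 0.34). Adjusted p-values of Grm2 over the 15 comparisons were 0.695 to 1.00.

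Grm3, the other group II gene, was at 27.4, 27.4, 47.9 and 24.4 CPM in vehicle (31.8 ± 10.8), with 1 library well above the rest. Every treated group overlapped vehicle, where 1.14 to 2.11% of all tested genes did not overlap, by comparison. Means of the treated groups ran from 28.7 ± 7.80 after psilocybin at 3 mg/kg to 36.1 ± 12.9 with both drugs at 3 mg/kg. The latter mean rests on replicate 4, the library that stood apart, at 55.1 CPM beside 29.6, 26.6 and 33.0, and without it was 29.8 ± 3.22 (n = 3). Log2 fold changes against vehicle were 0.04 and -0.14 for psilocybin, -0.02 and 0.02 for ketanserin, and 0.14 and 0.18 for both drugs, at 1 and 3 mg/kg (SE 0.24 throughout), the last of which was -0.09 (SE 0.230) without that library. The largest difference in any comparison was 0.33 (SE 0.24), for both drugs against psilocybin alone at 3 mg/kg, which was 0.05 without replicate 4 of the combination.

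Grm5, which encodes the group I receptor mGlu5, was the least even of the 6. Vehicle libraries were at 16.7, 6.60, 33.1 and 6.31 CPM (15.7 ± 12.6). Psilocybin gave 17.4, 6.59, 8.81 and 21.9 at 1 mg/kg (13.7 ± 7.22) and 5.39, 14.5, 11.4 and 20.1 at 3 mg/kg (12.8 ± 6.12). Ketanserin gave 18.1, 11.2, 11.5 and 20.7 at 1 mg/kg (15.4 ± 4.73) and 15, 23.4, 25.5 and 10.5 at 3 mg/kg (18.6 ± 7.04). Low and high libraries occurred in every group, vehicle included, and all groups overlapped. By compared pair of groups, 1.14 to 3.35% of all tested genes did not overlap.

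Both drugs left Grm5 at 19.3, 14.8, 2.73 and 23.3 CPM at 1 mg/kg (15 ± 8.92) and at 12, 5.20, 17.9 and 47.3 at 3 mg/kg (20.6 ± 18.6). Without the library at 47.3, which stood apart, the last mean was 11.7 ± 6.33 (n = 3). Against vehicle the log2 fold changes were -0.20 and -0.29 for psilocybin, -0.03 and 0.24 for ketanserin, and -0.06 and 0.39 for both drugs. Without the library that stood apart the last of these turned to -0.42 (SE 0.621), and the interaction at 3 mg/kg turned from 0.43 to -0.39. Their SE with all libraries was 0.620 to 0.623, so that the 95% interval for psilocybin at 3 mg/kg, -1.57 to 1.00 on the log2 scale, held large changes of either sign. The largest difference, both drugs against psilocybin alone at 3 mg/kg, was 0.67 (SE 0.624, adjusted p = 0.710 by edgeR) and turned to -0.14 without replicate 4 of the combination.

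**Figure D3:**
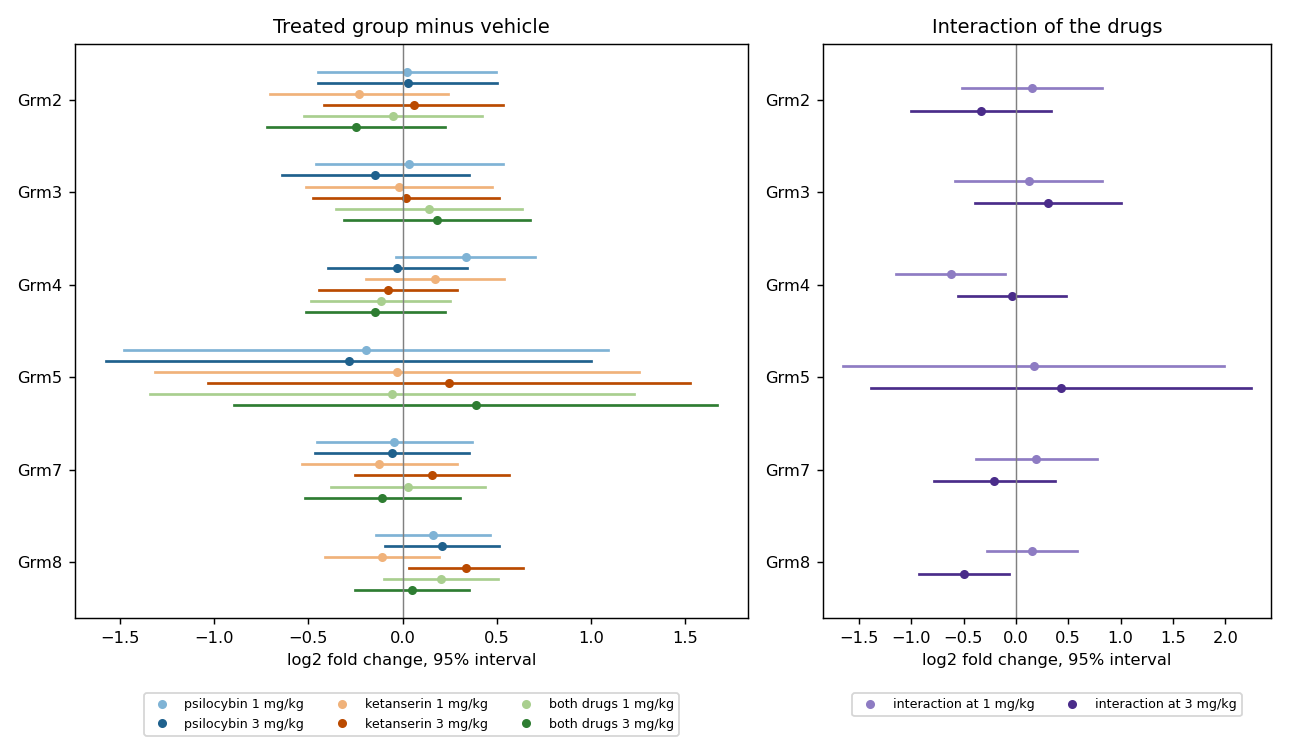
Log2 fold change with its 95% interval for each receptor gene, on the left for 6 treated groups against vehicle and on the right for the interaction at each dose. Intervals of Grm5 are the widest, and 3 intervals leave out 0, those of Grm8 for ketanserin at 3 mg/kg (0.34), of Grm4 for the interaction at 1 mg/kg (-0.62) and of Grm8 for that at 3 mg/kg (-0.50), none of which passed the adjusted test.

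Grm4, which encodes the group III receptor mGlu4, was the only one of the 6 with compared groups that did not overlap, in 1 of the 10 comparisons of a pair of groups. Vehicle was at 28.9, 34.4, 18.5 and 32.1 CPM (28.5 ± 7.02), psilocybin at 1 mg/kg at 33.4, 41.4, 33.8 and 35.0 (35.9 ± 3.72), and both drugs at 1 mg/kg at 18.6, 26.3, 33.2 and 27 (26.3 ± 5.96). All 4 libraries of psilocybin alone were above all 4 of the combination, at the nearest 33.4 against 33.2 CPM, and 3.35% of all tested genes likewise had groups that did not overlap there. The difference was -0.45 (SE 0.179, unadjusted p = 0.0184, adjusted p = 0.894 by edgeR), where the background was 0% of genes called and 4.13% at an unadjusted p under 0.05 in that comparison. Leaving out 1 library at a time moved it between -0.57 and -0.31.

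Against vehicle, Grm4 differed by 0.33 (SE 0.178) after psilocybin at 1 mg/kg and by -0.03 at 3 mg/kg, where libraries were at 33.9, 27.9, 24.5 and 25.4 CPM (27.9 ± 4.25). The higher mean at the lower dose had no counterpart at the higher dose. Ketanserin at 1 mg/kg left it at 27.4, 35.9, 31.7 and 33.5 (32.1 ± 3.6, log2 fold change 0.17) and at 3 mg/kg at 34.1, 21.1, 24.0 and 28.7 (27 ± 5.71, -0.08). Both drugs at 3 mg/kg gave 27.6, 25.9, 27.6 and 21.9 (25.8 ± 2.72, -0.14). The interaction was -0.62 at 1 mg/kg (SE 0.252, unadjusted p = 0.0207, adjusted p = 0.938 by edgeR) and -0.04 at 3 mg/kg (SE 0.253).

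Grm7, which encodes mGlu7, a receptor of the active zone of nerve terminals, was at 27.7, 13.1, 24.8 and 20.8 CPM in vehicle (21.6 ± 6.35). Treated group means were 19.8 ± 1.98 (ketanserin at 1 mg/kg) to 24.1 ± 2.62 (ketanserin at 3 mg/kg). Each treated group overlapped vehicle, where 1.14 to 2.11% of all tested genes did not overlap, by comparison. Log2 fold changes against vehicle were -0.04 and -0.06 for psilocybin, -0.12 and 0.16 for ketanserin, and 0.03 and -0.11 for both drugs (SE 0.199 throughout). Interactions were 0.20 (SE 0.282) at 1 mg/kg and -0.21 (SE 0.281) at 3 mg/kg.

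Grm8, which encodes mGlu8, had the tightest values and the lowest p for any difference among the 7 groups, an unadjusted p of 0.0907 by edgeR beside 0.112 for Grm4 and 0.730 to 0.934 for the rest (adjusted p = 1.00 for all 6). Vehicle was at 16.6, 15.8, 15.7 and 19.5 CPM (16.9 ± 1.77) and ketanserin at 3 mg/kg at 22.0, 25.7, 18 and 19.6 (21.3 ± 3.35). Of the latter, 3 lay above all vehicle libraries and 1 did not. The difference was 0.34 (SE 0.147, unadjusted p = 0.0308, adjusted p = 1.00), with 2.0% of genes at an unadjusted p under 0.05 in that comparison, and leaving out 1 library at a time gave 0.23 to 0.42.

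Ketanserin at 1 mg/kg left Grm8 at 14.5, 15, 14.8 and 18.2 CPM (15.6 ± 1.73, log2 fold change -0.11, SE 0.147), a difference smaller than its SE. Psilocybin gave 22.1, 19.2, 16.1 and 18.1 at 1 mg/kg (18.9 ± 2.49, 0.16) and 17.6, 19.9, 16.7 and 23.9 at 3 mg/kg (19.5 ± 3.19, 0.21). Both drugs gave 17.3, 18.6, 18.1 and 23.7 at 1 mg/kg (19.4 ± 2.90, 0.20) and 18.1, 14.7, 20.6 and 16.4 at 3 mg/kg (17.4 ± 2.53, 0.05). The combination at 1 mg/kg exceeded ketanserin alone by 0.31 (SE 0.147, unadjusted p = 0.0426, adjusted p = 1.00), with overlapping groups. At 3 mg/kg it was below ketanserin alone by -0.29 (SE 0.146), and the interaction there was -0.50 (SE 0.207, unadjusted p = 0.0241, adjusted p = 0.993) against 0.15 (SE 0.208) at 1 mg/kg.

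As a set the receptors had no common direction. Against vehicle, 4 of 6 were above and 2 below after psilocybin at 1 mg/kg (median log2 fold change 0.03, against -0.01 over all tested genes), and 2 above and 4 below at 3 mg/kg (-0.04 against -0.01). Ketanserin gave 1 above and 5 below at 1 mg/kg (-0.07 against -0.02) and 5 above and 1 below at 3 mg/kg (0.11 against -0.02). Both drugs gave 3 above and 3 below at each dose, with medians of -0.01 and -0.03. Without the library that stood apart the combination at 3 mg/kg had 1 above and 5 below (-0.08 against -0.01). These comparisons share the vehicle libraries, so their counts are not independent of each other.

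The receptors differed in how far animals of 1 group lay apart. The within-group SD of log2 CPM was 0.99 for Grm5, larger than in 98.6% of 2262 tested genes of like mean level (within 0.5 log2 CPM). It was 0.36 for Grm2 (larger than in 89.8% of such genes), 0.36 for Grm3 (82.3%), 0.30 for Grm7 (64.8%), 0.26 for Grm4 (63.3%) and 0.19 for Grm8 (21.5%). From the lowest to the highest of 28 libraries, Grm5 differed 17.3-fold in CPM on counts of 36 to 621, and 12.1-fold without the library that stood apart. The other 5 differed 1.77-fold (Grm8) to 2.91-fold (Grm2).

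Grm3 and Grm5 varied together between animals once group means were taken out, a relation computed over all groups and not within each treatment. Over 28 libraries, taking each library's deviation from its group mean in log2 CPM, Pearson's r was 0.90 and Spearman's rho 0.89. The permutation p, from 100000 shuffles within groups, was 1e-05, the smallest they can give, and 0.00021 after adjustment over the 21 relations computed. Without the 2 libraries farthest from the median of Grm3 r was 0.87, and without the library that stood apart it was 0.88. Such a value was not particular to Grm3, since the 100 named genes most like Grm5 had r with it of at least 0.93.

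Grm4 ran against these 2 genes. Its r was -0.74 with Grm3 (rho -0.75, permutation p = 0.00018, adjusted p = 0.00182) and -0.69 with Grm5 (rho -0.69, permutation p = 0.00026, adjusted p = 0.00182). Grm5 also varied with Grm7, at r 0.68 (rho 0.69, permutation p = 0.00154, adjusted p = 0.00808), or 0.80 without the library that stood apart. Without the 2 libraries farthest from the median of 1 gene of the pair (Grm3, Grm4 and Grm5 in turn), these 3 values were -0.67, -0.65 and 0.60. The remaining 11 of 15 pairs did not pass, among them Grm3 with Grm7 at r 0.50 (rho 0.52, permutation p = 0.0461, adjusted p = 0.161), which was 0.58 without 2 libraries (adjusted p = 0.0143). In bulk tissue, fewer cells of a type and less RNA per cell cannot be told apart.

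**Figure D4:**
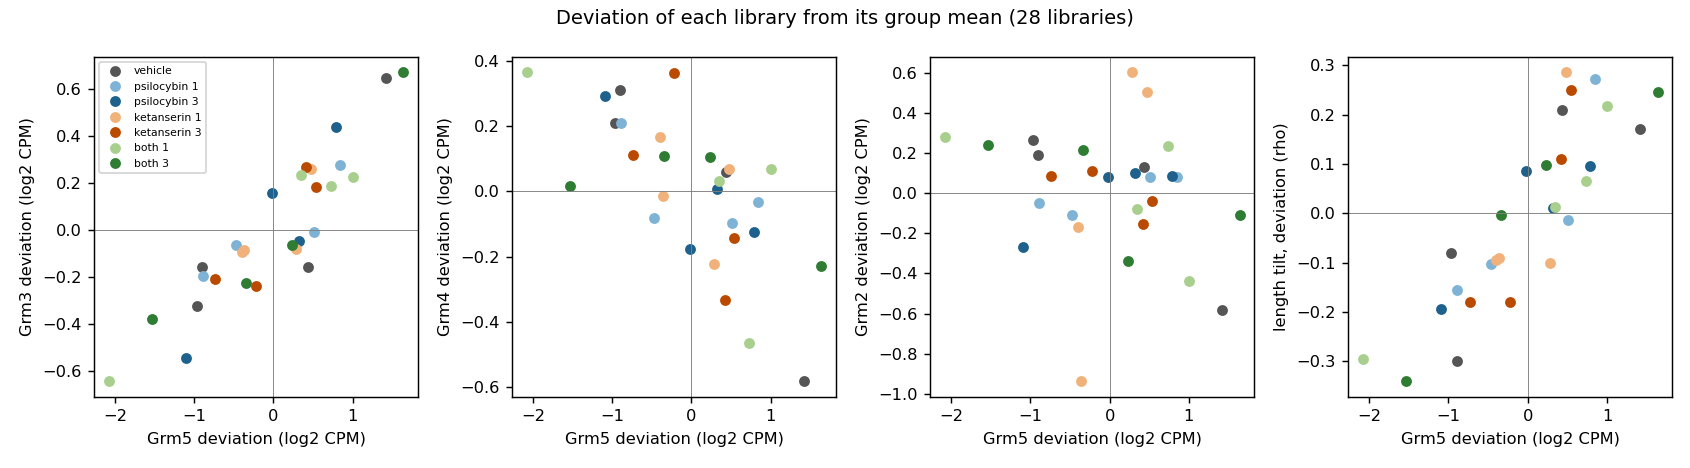
Deviation of each of 28 libraries from its group mean, with Grm5 on every x axis (log2 CPM) and Grm3, Grm4, Grm2 (log2 CPM) and the length tilt (Spearman's rho, described in the text) on the y axes. Points rise for Grm3 (r 0.90) and the tilt (r 0.87), fall for Grm4 (r -0.69) and show no slope past the test for Grm2 (r -0.20).

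Grm2 stayed out of this pattern. Its r with the other 5 receptors was -0.24 to 0.16, and none passed. Its r with Htr2a, which encodes the serotonin 2A receptor, was 0.16 (rho 0.00, permutation p = 0.639, adjusted p = 0.790), and r of the other 5 with Htr2a was -0.02 to 0.31 with none passing. Htr2a itself was at 34.0 ± 3.58 CPM in vehicle and 29.4 ± 3.12 to 34.2 ± 2.80 in the treated groups.

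Another measure of the libraries moved with the same receptors. Libraries differed in how the level of a gene deviated with its transcript length, here called the length tilt. The tilt is the Spearman correlation across 17404 genes between a gene's deviation in that library and its deposited length. Here the deviation is from the gene's mean log2 CPM over all 28 libraries, not from the group mean. The tilt ran from -0.328 in replicate 1 of psilocybin at 3 mg/kg to 0.275 in replicate 4 of both drugs at 3 mg/kg. All 4 libraries of psilocybin at 3 mg/kg were below 0 (-0.328 to -0.0384), and each other group held values on both sides of 0. With genomic span in place of length the extremes were -0.326 and 0.286 in the same libraries. By span, replicate 4 of psilocybin at 3 mg/kg was at 0.063. For the relations that follow, the length tilt was centred within groups. The tilt went with Grm5 (r 0.87, rho 0.86, adjusted permutation p = 6e-05 over 18 relations), Grm3 (r 0.78, rho 0.80, adjusted permutation p = 0.000108) and Grm7 (r 0.75, rho 0.74, adjusted permutation p = 0.000108), and against Grm4 (r -0.54, rho -0.55, adjusted permutation p = 0.0214). It did not pass with Grm8 (r 0.31, rho 0.33, adjusted permutation p = 0.184) or Grm2 (r -0.14, rho -0.23, adjusted permutation p = 0.587). Without the 2 farthest libraries of each gene r was 0.83, 0.77, 0.71 and -0.55 for the 4 that passed.

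With the tilt taken out of each gene's deviations, r was 0.73 for Grm3 with Grm5, -0.62 for Grm3 with Grm4, -0.54 for Grm4 with Grm5 and 0.09 for Grm5 with Grm7. These are descriptions with no test. The part of RNA quality or of library preparation in the tilt was not tested.

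Summed marker levels of other cell types moved with the same genes. The summed level of 6 interneuron markers was negatively correlated with Grm5 (r -0.83, rho -0.83) and Grm3 (r -0.81, rho -0.80), both at an adjusted permutation p of 6e-05. That of 6 astrocyte markers did too, with r -0.78 (rho -0.67, adjusted permutation p = 0.00036) and -0.71 (rho -0.60, adjusted permutation p = 0.00334). Within the astrocyte list 3 of 6 markers had a positive r with Grm5 and 3 a negative one. Aqp4, the water channel of astrocyte endfeet (deposited length 5419 bases), was at r 0.80 and the gap junction gene Gja1 (3127 bases) at 0.68, whereas Aldoc (1684 bases) was at -0.85 and S100b (1484 bases) at -0.82. Grm7 was negatively correlated with both sums (r -0.72 and rho -0.71 for interneurons, adjusted permutation p = 0.0009, and r -0.72 and rho -0.65 for astrocytes, adjusted permutation p = 0.00479). Without its 2 farthest libraries the second of these no longer passed (r -0.55, adjusted permutation p = 0.0617). Without the library that stood apart it passed (r -0.87, adjusted permutation p = 0.000437). Grm8 with the astrocyte sum was at r -0.44 and rho -0.51 (adjusted permutation p = 0.0599 for r and 0.0236 for rho). Its r was -0.55 without the library that stood apart (adjusted permutation p = 0.0171). It was -0.35 without the 2 farthest libraries of Grm8 (adjusted permutation p = 0.162). Grm4 was positively correlated with the interneuron sum (r 0.59, rho 0.60, adjusted permutation p = 0.00234). With the astrocyte sum its r was 0.47 and rho 0.38 (adjusted permutation p = 0.0401 for r and 0.0956 for rho). That relation passed without the 2 libraries farthest from the median of Grm4 (r 0.44, adjusted permutation p = 0.0365). It did not pass without the library that stood apart (r 0.42, adjusted permutation p = 0.0966). With Grm5, r was 0.28 for Gad1 and 0.68 for Gad2, which encode the enzymes of GABA synthesis. For the other 4 interneuron markers r with Grm5 was between -0.85 and -0.55. Of 6 oligodendrocyte markers, whose summed level was 2108 to 8076 CPM, all 6 had a negative r with Grm7 (-0.63 to -0.11) and with Grm8 (-0.27 to -0.05), 5 with Grm5, 4 with Grm3 and 1 with Grm4. No marker of the 3 lists was at 0 in any library. The part of cell composition in these results was not tested.

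The genes most like each receptor over the 28 libraries, by r of within-group deviations, are given with no p. Grm5 was most like Smg1 (r 0.98), a kinase of nonsense-mediated decay, and Mib1 (0.98), a ubiquitin ligase of Notch signalling. Grm3 was most like the sodium/proton exchanger Slc9a7 (0.95) and the magnesium transporter Nipa1 (0.94), and Grm7 most like Myef2 (0.94) and AABR07004881.1 (0.93). Grm4 was most like Lrrc57 and Kcmf1 (both 0.76), Grm2 most like Rn60_15_0408.6 (0.69) and Ccdc153 (0.67), and Grm8 most like RGD1563307 and the fibrillin gene Fbn2 (both 0.64). Many genes came close to these values. The lowest r among the 100 named genes most like a receptor was 0.93 for Grm5, 0.88 for Grm3 and 0.84 for Grm7. It was 0.64 for Grm4, 0.48 for Grm8 and 0.45 for Grm2. The median deposited length of the 100 genes most like Grm5 was 3618 bases and of those most like Grm4 1729 bases, against 2193.5 bases over all tested genes.

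None of the genes listed here through which these receptors act was called. Of 25 tested records of group I partners (Homer and Shank scaffolds, Gq subunits, phospholipase C, protein kinase C and diacylglycerol enzymes), 0 were called higher and 0 lower over the 15 comparisons, and 6 of their 375 gene comparisons had an unadjusted p under 0.05. Their median log2 fold change against vehicle was -0.02 and -0.12 for psilocybin at 1 and 3 mg/kg, 0.00 and 0.04 for ketanserin, and 0.01 and 0.14 for both drugs. Without the library that stood apart the last median was -0.08, with 8 above and 17 below. Homer3, a scaffold that links group I receptors to intracellular calcium stores, had the lowest p of that list for any difference among groups (0.0707 unadjusted by edgeR, adjusted p = 1.00). It was at 17.7 ± 2.90 CPM in vehicle, 20.3 ± 2.52 and 20.9 ± 2.35 with psilocybin, 18.4 ± 1.24 and 17.0 ± 1.36 with ketanserin, and 15.1 ± 1.64 and 15 ± 4.84 with both drugs at 1 and 3 mg/kg. The combinations differed from psilocybin alone by -0.43 and -0.48 (SE 0.178 for both). Replicate 4 of the second, the library that stood apart, was at 7.92 CPM, and without it that mean was 17.3 ± 1.37 (n = 3) and the difference -0.27 (SE 0.136).

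Next on that list were Shank1, a postsynaptic scaffold, and Dgkz, a kinase that clears diacylglycerol. Shank1 was at 1305 ± 89.7 CPM in vehicle and 1827 ± 1038 with both drugs at 3 mg/kg, and its log2 fold change there was 0.49 (SE 0.210). The higher mean came from the library that stood apart, at 3383 CPM beside 1287, 1286 and 1351, and without it the log2 fold change was 0.01 (SE 0.118). Dgkz differed from vehicle by -0.06 to 0.18 (SE 0.0951).

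Of 29 tested genes of group II and III signalling (Gi/o and beta-gamma subunits, adenylyl cyclases, inwardly rectifying potassium channels, presynaptic calcium channels and regulators), 0 were called higher and 0 lower, and 7 of 435 gene comparisons had an unadjusted p under 0.05. Their median log2 fold change against vehicle was -0.06 and -0.10 for psilocybin, 0.02 and -0.02 for ketanserin, and 0.02 and 0.09 for both drugs, the last of which was -0.03 without the library that stood apart. Gng2, a G protein gamma subunit, was at 176 ± 18.7 CPM in vehicle, 156 ± 27.1 and 203 ± 30.1 after psilocybin at 1 and 3 mg/kg, and 198 ± 13 and 193 ± 19.5 after both drugs (unadjusted p for any difference 0.0495 by edgeR, adjusted p = 1.00). Without the library that stood apart the last mean was 203 ± 2.47 (n = 3). Adrbk1, a kinase that desensitizes these receptors, and Prkaca, the catalytic subunit of protein kinase A, differed from vehicle by at most 0.17 and 0.19 in any treated group.

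Of 13 genes of glutamate release and uptake, 0 were called higher and 0 lower, with 5 of 195 gene comparisons at an unadjusted p under 0.05. Slc17a6, the vesicular glutamate transporter VGLUT2, which in forebrain is mostly thalamic, was at 11.2 ± 2.95 CPM in vehicle and lower on average in all 6 treated groups, at 6.98 ± 1.48 after psilocybin at 3 mg/kg (log2 fold change -0.68, SE 0.282) and 6.81 ± 1.84 after ketanserin at 1 mg/kg (-0.71, SE 0.283). Neither passed (adjusted p = 0.997 and 1.00 by edgeR), and all 6 comparisons share the vehicle libraries. The glutamine transporters Slc38a3 and Slc38a2 differed from vehicle by -0.22 to 0.10 and by -0.19 to 0.02. Grm6 was at 1.33 ± 0.418 to 2.67 ± 0.744 CPM over the groups. Htr2c, the serotonin 2C receptor gene, was at 14.8 ± 5.12 CPM in vehicle and 15.4 ± 2.38 to 20.8 ± 2.51 in treated groups, with no comparison called.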

How the data were processed

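RNA of rat prefrontal cortex was sequenced from poly-A selected, strand-marked (dUTP) libraries, per the labels' protocols. The authors deposited raw counts per gene and FPKM per gene. featureCounts 1.5.0-p3, StringTie 1.3.3b and HISAT2 2.0.5 are named with build rn6 per the submitters' processing notes. The sources used here do not say whether counting used strand. The library size that FPKM implied was 0.915 to 1.07 times the total count.

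Counts of 28 libraries (7 groups of 4, named from the labels) were fitted with edgeR 4.0.16 (R 4.3.3). The filter on low counts was filterByExpr over groups, libraries were scaled by TMM factors (0.905 to 1.05), and 1 coefficient per group was estimated with 21 residual degrees of freedom. The 3842 assembled records with no gene name, 1.99 to 4.46% of the counts of a library, have coordinates and stayed in totals and tests. Contrasts were tested two-sided with the robust quasi-likelihood F test and adjusted by the Benjamini-Hochberg method over 17404 genes. DESeq2 1.42.0, DESeq2 size factors, no low-count filter, a fit of the compared groups only and each library left out were alternatives, and the length tilt as a covariate and the relations and lists without the library that stood apart were added after seeing the data. Correlations used log2 CPM with a prior count of 0.5, centred within groups.

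The text names all 6 receptors, from each list any called gene and otherwise the 3 with the lowest p for any difference among groups, and the 2 genes most like each receptor. The members and lists were chosen with earlier results of these data known. The spread between animals and the counting error both enter the intervals, and totals of 12783067 to 18538414 counts set the second.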

Additional observations from a re-analysis of the deposited data

Results flagged for a closer look

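In 6 of 42 groups of 4 libraries (6 genes in 7 groups) 1 library lay far from the other 3 by Dixon's gap criterion, which chance meets in about 1 of 20 groups. Grm2 in replicate 1 of psilocybin at 3 mg/kg was at 108 CPM, below 138 to 140.0 in the others. Grm3 met it 3 times. In replicate 3 of vehicle it was at 47.9 CPM, above 24.4 to 27.4. In replicate 4 of ketanserin at 1 mg/kg it was at 37.3 CPM, above 29.2 to 29.5. In replicate 3 of both drugs at 1 mg/kg it was at 21.7 CPM, below 38.5 to 39.9. Grm7 in replicate 4 of ketanserin at 3 mg/kg was at 20.1 CPM, below 24.9 to 25.6, and Grm8 in replicate 4 of ketanserin at 1 mg/kg was at 18.2 CPM, above 14.5 to 15. Grm5, the gene with the widest spread, met the criterion in no group.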

How the results depend on the processing

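The number of receptors called was 0 in every comparison under every alternative run, and the lowest adjusted p of any receptor over them was 0.299. Of the 90 log2 fold changes, 69 were smaller than their own SE and were taken to have no direction. The remaining 21 kept theirs, except that Grm5 for both drugs against psilocybin alone at 3 mg/kg turned from 0.67 to -0.27 with the length tilt as a covariate and to -0.14 without replicate 4 of the combination (-0.14 to 1.00 over libraries left out in turn). An unadjusted p under 0.05 was held by 5 of 90 with DESeq2, 5 with its size factors in edgeR, 4 with no filter, 4 with only the groups compared and 7 with the tilt as a covariate. With the tilt as a covariate, 322 to 939 of 17404 tested genes had such a p, by comparison. That count over all genes is not given for the other alternatives. The count of pairs of receptors whose correlation passed was 4. It was 5 without the 2 libraries farthest from the median of 1 gene of each pair. Grm3 with Grm7 then passed at r 0.58. No paired analysis was possible because the labels number no replicates. Grm5 had an SE near 0.62 on counts of 36 to 621, against 0.15 for Grm8 on counts of 209 to 442. Without replicate 4 of the combination at 3 mg/kg, Grm5 against vehicle went from 0.39 to -0.42 at that dose and from 0.17 to -0.24 with both doses pooled, each smaller than its SE. Replicate 3 of vehicle, which enters every comparison with vehicle, also moved values. Without it, pooled psilocybin against vehicle went from -0.24 to 0.43 for Grm5 and from 0.02 to -0.13 for Grm2. For Grm4 it went from 0.15 to -0.01. Pooled combinations against vehicle went from 0.16 to 0.43 for Grm3.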

Other observations

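With each library's length tilt as a covariate in the edgeR fit, an alternative chosen after seeing the data, the SE of Grm5 for both drugs against psilocybin alone at 3 mg/kg was 0.355, against 0.624 without it. In that fit Grm5 for both drugs against ketanserin alone at 1 mg/kg was at a log2 fold change of -0.89 (unadjusted p = 0.0219) and the interaction at 1 mg/kg at -1.24 (unadjusted p = 0.0247), against -0.03 and 0.17 without the covariate. Neither passed the adjusted test. In that fit 847 of 17404 tested genes had an unadjusted p under 0.05 for both drugs against ketanserin alone at 1 mg/kg. For the interaction at 1 mg/kg 939 did.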
